A study of Mus musculus with 3 samples.

Results

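The genes described are 35 members of collagen biosynthesis, out of 28693 gene identifiers in the count tables. They comprise 17 collagen chains and 18 enzymes, chaperones and proteases that modify, fold, process or crosslink those chains. They were chosen by symbol from a list of collagens and collagen-processing genes, and all 35 were present in the tables. Single-cell RNA libraries were made from the dermis of mouse abdominal skin, 1 library each from non-pregnant mice (NP), from day 16 of gestation (dpc16) and from day 42 after birth of the litter (dpp42). All mice were C57BL/6, labelled as aged 8 to 12 weeks, and carried Col1a2creERT2 and R26H2B EGFP, a tamoxifen-inducible Cre recombinase named for the Col1a2 gene and a nuclear fluorescent reporter. The dpc16 and dpp42 mice received tamoxifen during their pregnancy. NP mice received it for 3 days and their skin was taken 48 days later, so all 3 groups were exposed to tamoxifen. Subcutaneous fat had been cut away before the dermis was separated with trypsin, and the number of mice behind each library is not given in the sources used here.

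Fibrillar collagens are made as procollagen chains that are hydroxylated on proline and lysine in the endoplasmic reticulum, folded into a triple helix with the help of dedicated chaperones, secreted, trimmed of their propeptides and then covalently crosslinked into fibrils. Type I collagen, with type III and a smaller amount of type V, forms the fibrils that give the dermis its strength, and fibroblasts make most of it. Type VI collagen forms beaded filaments around cells, and types VII and XVII anchor the epidermis to the dermis.

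After removal of barcodes with fewer than 200 genes or more than 10% mitochondrial counts, 1289 NP, 3652 dpc16 and 1081 dpp42 cells remained, with a median of 3119, 4300.5 and 3252 unique molecular identifiers (UMIs, single counted transcripts) per cell. Any pair of libraries shared between 1 and 6 cell barcodes. Cells were clustered without the 35 genes and clusters were named from marker lists that hold none of them. Fibroblast-like cells, named from 8 markers such as Dcn, Lum and Pdgfra, were 101 of the NP cells (7.84%), 1124 of the dpc16 cells (30.8%) and 112 of the dpp42 cells (10.4%). Their median depth was 2617 UMIs in NP, 4040.5 in dpc16 and 2420 in dpp42. Keratinocyte-like cells made up 69.4%, 33.8% and 56.9% of the 3 suspensions although dermis is the labelled tissue. Within fibroblast-like cells, 10 keratinocyte markers summed to 2883, 2147 and 3730 CPM (UMIs scaled to 1000000 per library and cell class) in NP, dpc16 and dpp42, 4 haemoglobin genes to 7.14, 457 and 20.5 CPM, and all 4 adipocyte markers were at 0 in all 3 libraries.

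Since each condition is 1 library, no comparison between conditions has a test. UMIs were summed over the fibroblast-like cells of a library and are given as CPM with exact Poisson 95% intervals; a ratio of 2 libraries carries an exact 95% interval. These intervals cover counting error only, and a difference is one between these libraries. A gene counted as measured when either library of a pair reached 10 CPM and the pair held 20 UMIs or more, and it was called higher or lower when the ratio was at least 1.5-fold.

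The main result was a dpc16 library in which the chains of type I and type III collagen, the type V chain Col5a2, the propeptidase Adamts2 and the crosslinking enzyme Lox were higher than in NP, and lower again in dpp42. The 17 collagen genes took 4.86% of all fibroblast-like UMIs in NP (95% exact binomial interval 4.78 to 4.94), 8.13% in dpc16 (8.11 to 8.16) and 3.93% in dpp42 (11525 of 293261 UMIs). The 18 enzymes, chaperones and proteases together took 0.476%, 0.544% and 0.435%, which differed less between libraries than the summed chains. Most of the chain sum came from Col1a1, Col1a2 and Col3a1, at 4.54%, 7.77% and 3.55%. The contrast thus rests on those chains, and the machinery sum joins members that moved in opposite directions. Type VI chains followed another order and were highest in dpp42. Proline hydroxylases P4ha1 and P4ha2 were lower in dpc16 than in NP.

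In dpc16 against NP, 31 members were measured, of which 9 were higher, 6 lower and 16 neither. Over all 8119 measured genes, 20.7% were higher and 33.0% lower, against 29.0% and 19.4% of the members. The median log2 ratio was 0.06 for the members and -0.30 for all measured genes. With ratios divided by the median ratio of all measured genes, 13 members were higher and 5 lower, beside 29.4% and 21.3% of all genes.

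In dpp42 against NP, 30 members were measured, with 8 higher, 3 lower and 19 neither. Of all 3834 measured genes 22.1% were higher and 14.2% lower, close to the 26.7% and 10.0% of the members, so these counts do not set the members apart. Median log2 ratios were 0.10 and 0.08. After division by the median ratio the split was 6 higher and 6 lower, beside 18.6% and 16.1% of all genes.

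In dpp42 against dpc16, 32 members were measured, with 10 higher, 8 lower and 14 neither. Of all 8572 measured genes 41.3% were higher and 13.3% lower, against 31.2% of the members higher and 8 of 32 lower. The median log2 ratio was 0.20 for the members and 0.48 for all measured genes, and after division by the median ratio the split was 1 higher and 12 lower, beside 20.9% and 27.6% of all genes. Each pair of these comparisons shares a library, so their calls are not independent.

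**Figure D1:**
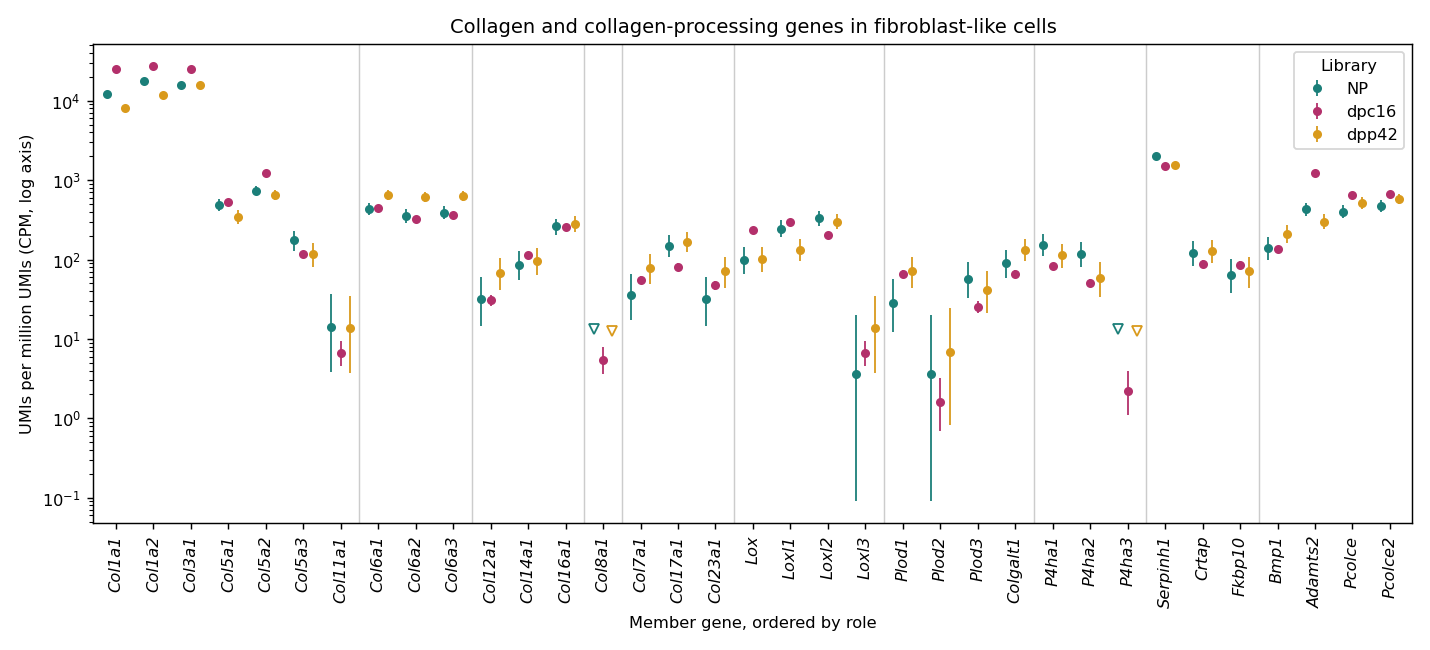
CPM (log axis) of the 35 genes in fibroblast-like cells of NP, dpc16 and dpp42, with exact Poisson 95% intervals; grey lines separate roles, and open triangles mark the upper limit where no UMI was counted. Col1a1, Col1a2 and Col3a1 are the most abundant in every library and highest in dpc16, while the 3 type VI chains are highest in dpp42.

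**Figure D2:**
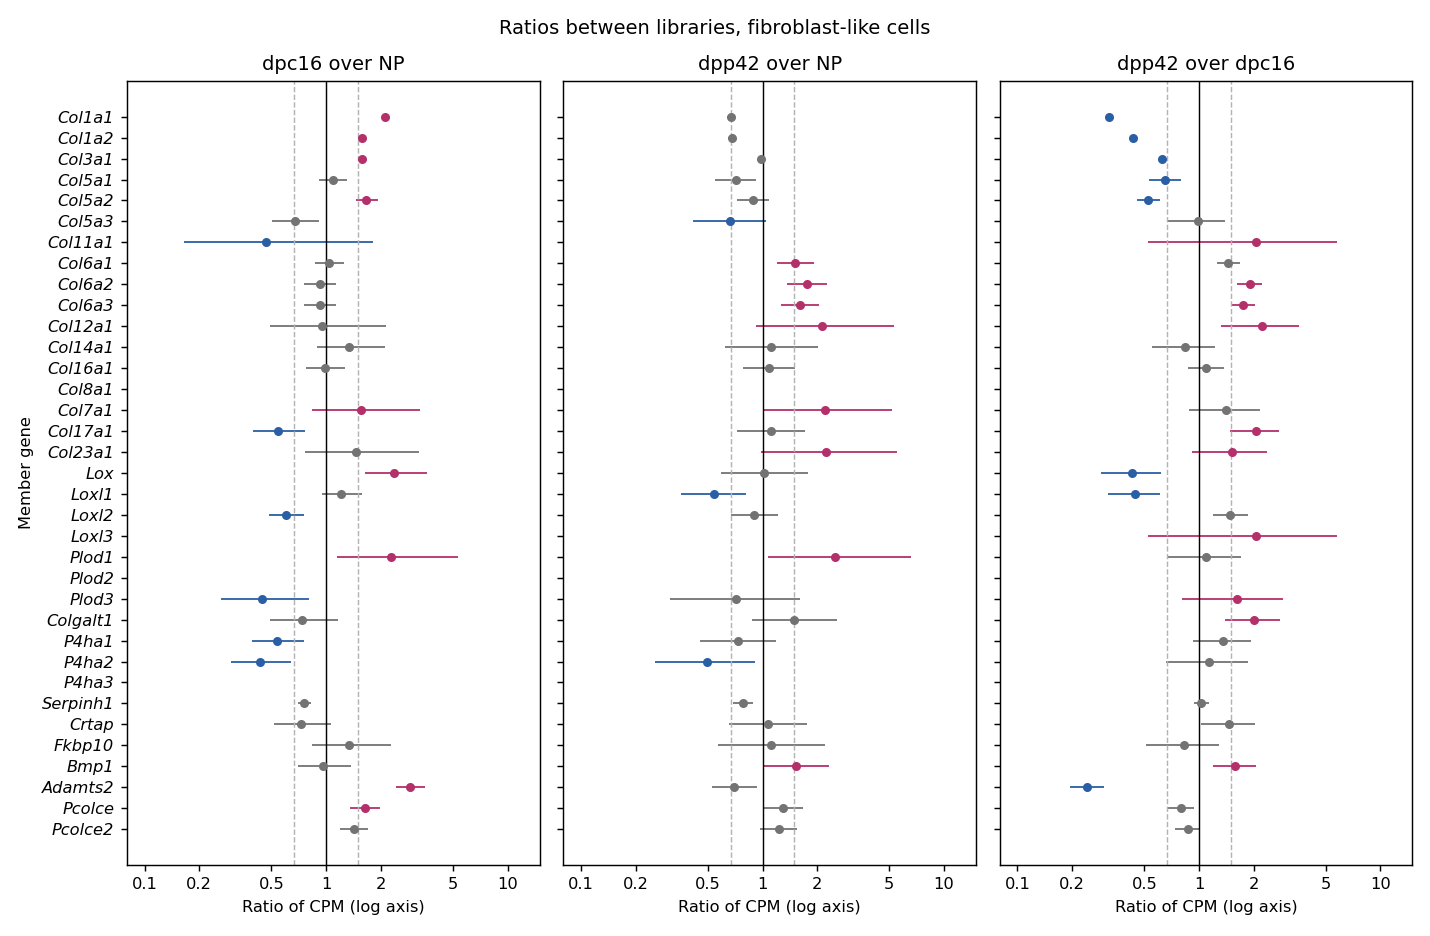
Ratio of CPM between libraries for each measured member (log axis), with exact 95% intervals; dashed lines mark 1.5-fold either way, red points are higher and blue points lower in the first-named library. Adamts2, Lox and Col1a1 have the highest ratios of dpc16 over NP among members of at least 100 CPM in 1 library, and the intervals of members with few UMIs are wide.

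Col1a1 (ENSMUSG00000001506, GRCm38 chr11:94936224-94953042, plus strand) encodes the α1 chain of type I collagen. Its level was 12020 CPM in NP (11617 to 12433), 25321 CPM in dpc16 (25181 to 25462) and 8078 CPM in dpp42 (7756 to 8410). The dpc16 library was the highest and the 3 intervals did not overlap. The ratio of dpc16 to NP was 2.11 (2.04 to 2.18), and that of dpp42 to dpc16 was 0.319 (0.306 to 0.332). Against NP, dpp42 was at 0.672 (0.637 to 0.709), just short of the 1.5-fold limit, which it passed under 5 of 11 alternatives (log2 ratio down to -0.73, against -0.57). The median single cell held 10151 CPM in NP, 23423 in dpc16 and 6839 in dpp42, so the difference was also present in the typical cell and not only in the sum.

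Col1a2 (chr6:4504814-4541544, plus strand), the α2 chain that joins type I trimers, stood at 17499 CPM in NP, 27436 in dpc16 and 11822 in dpp42. It had the same order as Col1a1 with smaller ratios, 1.57 for dpc16 over NP (1.52 to 1.61) and 0.431 for dpp42 over dpc16 (0.417 to 0.446). UMIs of Col1a1 per UMI of Col1a2 were therefore 0.687 in NP (0.657 to 0.718), 0.923 in dpc16 (0.916 to 0.930) and 0.683 in dpp42 (0.648 to 0.720). The dpc16 library stood apart and NP and dpp42 had overlapping intervals for this chain ratio.

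Col3a1 (chr1:45311538-45349706, plus strand), the single chain of type III collagen, was at 15910 CPM in NP, 24970 in dpc16 and 15604 in dpp42. Its ratio of dpc16 to NP was 1.57 (1.52 to 1.62), and NP and dpp42 did not differ beyond counting error (0.981, 0.941 to 1.02). Col3a1 in dpp42 was thus at the NP level while the 2 type I chains were below it. Per UMI of Col1a1 there were 1.32 UMIs of Col3a1 in NP (1.27 to 1.38), 0.986 in dpc16 (0.978 to 0.994) and 1.93 in dpp42 (1.84 to 2.03).

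For Col1a2 and Col3a1 the excess in dpc16 over NP lay close to the 1.5-fold limit and depended on how cells were chosen. With at most 5% mitochondrial UMIs, with finer clusters or with each cell classed by its own markers, both were under it, with log2 ratios down to 0.51 for Col1a2 and 0.53 for Col3a1. The main log2 ratio was 0.65 for each, and all 11 alternatives kept Col1a1 past 1.5-fold.

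Type V collagen nucleates and limits the width of type I fibrils. Of its chains, Col5a2 was at 739 CPM in NP, 1238 in dpc16 and 651 in dpp42, with a ratio of dpc16 to NP of 1.67 (1.46 to 1.93). Col5a1 was at 489, 532 and 348 CPM, and its ratio of dpc16 to NP was 1.09 (0.914 to 1.30). The 2 chains of the common type V trimer therefore did not keep 1 ratio, with 1.51 UMIs of Col5a2 per UMI of Col5a1 in NP (1.21 to 1.89) and 2.33 in dpc16 (2.22 to 2.44). Col5a3 was lower in level, at 175, 117 and 116 CPM, and did not share the dpc16 maximum. Col5a2 lies on chromosome 1 beside Col3a1 on the opposite strand, 24614 bases away with no annotated gene between them. Col11a1, a minor fibrillar chain, had between 4 and 33 UMIs in a library.

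Type VI collagen is assembled from 1 copy each of 3 chains. Col6a1 was at 432 CPM in NP (359 to 516), 451 in dpc16 (433 to 470) and 655 in dpp42 (565 to 754). Col6a2 was at 354, 327 and 621 CPM, and Col6a3 at 389, 359 and 627 CPM, listed for NP, dpc16 and dpp42. NP and dpc16 had overlapping intervals for each chain, and dpp42 lay above both. The ratio of dpp42 to NP was 1.51 for Col6a1 (1.20 to 1.92), 1.75 for Col6a2 (1.37 to 2.26) and 1.61 for Col6a3 (1.26 to 2.06). UMIs of Col6a3 per UMI of Col6a2 were 1.10, 1.10 and 1.01 in NP, dpc16 and dpp42, and those of Col6a1 per UMI of Col6a2 were 1.22 (0.929 to 1.61), 1.38 (1.30 to 1.47) and 1.05 (0.857 to 1.30). The chains parted more between clusters than between libraries: in dpc16, Col6a1, Col6a2 and Col6a3 were at 614, 353 and 207 CPM in cluster 28 and at 255, 142 and 470 CPM in cluster 29. This excess of dpp42 over NP changed with the weighting of fibroblast-like clusters, and the part of cluster make-up in it was not tested. With the 4 clusters common to all libraries weighted equally, the log2 ratio of dpp42 to NP was at its lowest, 0.11 for Col6a1, 0.39 for Col6a2 and 0.05 for Col6a3, and none passed 1.5-fold.

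Of the fibril-associated chains, Col14a1, which binds fibril surfaces, was at 85.7, 114 and 95.5 CPM in NP, dpc16 and dpp42, and Col16a1 was at 261, 257 and 283 CPM, with all intervals between libraries overlapping. Col12a1 had few UMIs (9 in NP, 152 in dpc16, 20 in dpp42), and its ratio of dpp42 to NP, 2.12 (0.923 to 5.29), was not distinguishable from 1 at this depth. Against dpc16, Col12a1 in dpp42 was higher, 68.2 against 30.7 CPM (2.22, 1.32 to 3.55).

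Sequences upstream of 4 annotated starts are given, each of 150 bases, to set 2 members that were highest in dpc16 beside 2 type VI chains that were highest in dpp42. Col1a2, Pcolce and Col6a1 were also looked up and left out, because annotated exon covered too much of their windows. They are RefSeq sequences of GRCm38.p6, read 5′ to 3′ on the gene's strand and ending 1 base before the RefSeq start; 24 of the 35 members had an entry. Capitals mark any match, on either strand, to CCAAT (the box bound by NF-Y), to TATAAA (bound by TATA-binding protein) or to GGGCGG (bound by Sp-family factors); no marked matches overlap.
Col3a1 chr1:45311388-45311537 plus strand: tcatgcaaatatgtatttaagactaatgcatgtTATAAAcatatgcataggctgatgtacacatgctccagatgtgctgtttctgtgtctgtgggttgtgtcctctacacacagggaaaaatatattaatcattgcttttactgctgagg
Adamts2 chr11:50601935-50602084 plus strand: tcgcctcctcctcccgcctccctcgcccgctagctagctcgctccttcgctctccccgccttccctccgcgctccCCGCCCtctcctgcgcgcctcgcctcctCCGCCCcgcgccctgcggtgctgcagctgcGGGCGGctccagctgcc
Col6a2 chr10:76623631-76623780 minus strand: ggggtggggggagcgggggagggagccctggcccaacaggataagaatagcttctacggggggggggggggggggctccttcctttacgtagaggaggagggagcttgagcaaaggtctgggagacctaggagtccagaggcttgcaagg
Col6a3 chr1:90843972-90844121 minus strand: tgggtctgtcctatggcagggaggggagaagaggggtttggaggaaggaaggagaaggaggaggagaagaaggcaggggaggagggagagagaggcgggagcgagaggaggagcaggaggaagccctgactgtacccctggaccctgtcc

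The Col3a1 window held 1 TATAAA, 117 bases before the start, a motif found in 7.57% of 32851 windows of the same length. Adamts2 held 3 GGGCGG matches, at 75, 47 and 17 bases before the start, and 28.6% of all windows held at least 1. CCAAT was in none of the 4 windows and in 24.5% of all windows, and the 2 type VI windows held none of the 3 motifs. Such matches describe the letters and were not tied to binding by any measurement here.

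Adamts2 (chr11:50602084-50807573, plus strand), the protease that removes the amino-terminal propeptide of fibrillar procollagens, had the largest excess in dpc16 among members of at least 100 CPM in 1 library. Its level was 429 CPM in NP (355 to 513), 1242 in dpc16 (1211 to 1273) and 300 in dpp42 (241 to 370). It was 2.90 times the NP level in dpc16 (2.42 to 3.50), and dpp42 was at 0.242 of dpc16 (0.194 to 0.298). After thinning every cell to 1000 UMIs, 25.7% of NP, 62.8% of dpc16 and 21.4% of dpp42 fibroblast-like cells had an Adamts2 UMI (58.4%, 90.1% and 50.9% before thinning). In keratinocyte-like cells, of median depth 3177, 4789.5 and 3424 UMIs, the thinned shares were 0.112%, 0.891% and 0.325%.

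The other propeptide-processing genes varied less. Pcolce, which enhances cleavage of the carboxyl-terminal propeptide, was at 400 CPM in NP, 652 in dpc16 and 518 in dpp42, a ratio of dpc16 to NP of 1.63 (1.35 to 1.98). Its relative Pcolce2 was at 475, 672 and 583 CPM, and its ratio of 1.42 (1.19 to 1.70) stayed under the limit. Bmp1, the carboxyl-terminal proteinase itself, was at 139, 134 and 211 CPM and was highest in dpp42, at 1.57 times dpc16 (1.19 to 2.05). In that comparison its log2 ratio was 0.67, while all measured genes had a median of 0.48. So the amino-terminal protease and the carboxyl-terminal protease did not share an order of libraries.

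Among crosslinking enzymes, which oxidise lysine in assembled collagen and elastin, each paralogue had its own order. Lox was at 100 CPM in NP (66.5 to 145), 238 in dpc16 (224 to 252) and 102 in dpp42 (69.0 to 146), and its ratio of dpc16 to NP was 2.38 (1.64 to 3.59). NP and dpp42 overlapped for Lox. Loxl1, needed for elastic fibres, was at 246, 299 and 133 CPM; it was lowest in dpp42, at 0.540 of NP (0.355 to 0.810). Loxl2 was at 332, 201 and 300 CPM and lowest in dpc16, at 0.605 of NP (0.488 to 0.756). Equal weighting of the shared clusters moved the log2 ratio of Loxl2 to -0.17 and ended that call. Loxl3 had between 1 and 33 UMIs in a library.

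The prolyl 4-hydroxylase subunits P4ha1 and P4ha2, whose product stabilises the triple helix, moved opposite to the type I and III chains in dpc16 against NP. P4ha1 was at 154 CPM in NP (111 to 207), 82.8 in dpc16 (74.9 to 91.2) and 113 in dpp42 (77.5 to 158). P4ha2 was at 118 CPM in NP (81.1 to 166), 50.7 in dpc16 (44.6 to 57.3) and 58.0 in dpp42 (33.8 to 92.8). The ratio of dpc16 to NP was 0.539 for P4ha1 (0.393 to 0.756) and 0.430 for P4ha2 (0.298 to 0.638), and all measured genes had a median log2 ratio of -0.30 in that comparison. P4ha2 was also lower in dpp42 than in NP (0.492, 0.257 to 0.909), the direction of the type I chains there. In dpp42 against dpc16, neither P4ha1 (1.36, 0.923 to 1.94) nor P4ha2 (1.14, 0.656 to 1.87) passed 1.5-fold. P4ha3 was counted only in dpc16, with 11 UMIs; its 0 counts in NP and dpp42 allow up to 13.2 and 12.6 CPM.

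Serpinh1 (chr7:99345376-99353239, minus strand) encodes HSP47, the chaperone that binds folded procollagen, and was the most abundant non-collagen member in UMIs. It was at 2000 CPM in NP (1838 to 2173), 1521 in dpc16 (1487 to 1556) and 1565 in dpp42 (1425 to 1715), a ratio of dpc16 to NP of 0.760 (0.698 to 0.830). Its level was thus lower in the library where the type I and III chains were highest, without reaching the 1.5-fold limit. Crtap, a part of the prolyl 3-hydroxylation complex, was at 121, 88.8 and 130 CPM, and Fkbp10, a prolyl isomerase, at 64.3, 86.2 and 71.6 CPM. Neither passed the limit in any comparison.

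Lysine-modifying enzymes had few UMIs. Colgalt1, which adds galactose to hydroxylysine, was at 89.3 CPM in NP, 66.2 in dpc16 and 133 in dpp42; dpc16 was at 0.498 of dpp42 (0.357 to 0.713). Plod1, a lysyl hydroxylase, had 8 UMIs in NP and was at 28.6, 65.4 and 71.6 CPM. Plod3 was at 57.2, 25.4 and 40.9 CPM, with its lowest value in dpc16 at 0.445 of NP (0.264 to 0.802). Plod2 had at most 8 UMIs in a library.

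The collagen sum was next compared between clusters inside 1 library. The dpc16 fibroblast-like cells formed 6 clusters, and these were made without the 35 genes. Cluster 5, led by Sparc and kallikrein genes, gave 11.2% of its UMIs to the 17 collagens and had the highest Col1a1, at 36480 CPM. Cluster 28, led by Coch, Fmod and Tnmd, gave 1.29%, with Col1a1 at 4773 CPM. The span between highest and lowest cluster was 7.64-fold for Col1a1 (7.12 to 8.21) and 36.1-fold for Col3a1 (30.8 to 42.5), yet 1.66-fold for Serpinh1 (1.49 to 1.86). The spans of both chains rested on the 41 cells of cluster 28. Without it, Col1a1 ran from 16866 CPM in cluster 19 to 36480 in cluster 5, a span of 2.16-fold, and Col3a1 from 19020 CPM in cluster 29 to 33766 in cluster 24, a span of 1.78-fold (1.74 to 1.81), while that of Serpinh1 was still 1.66-fold.

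Type VI chains did not follow the type I chains across clusters. In dpc16, Col6a1 was at 988 CPM in cluster 24, led by Dcn, Igfbp2 and Mmp3, and at 951 in cluster 19, led by Mfap4, Dcn and Eln, against 118 in cluster 5 and 126 in cluster 4, led by Dcn and chemokine genes. Cluster 24 was also the highest for the fibrillar chains Col3a1, Col5a1 and Col5a3, while Col1a1, Col1a2 and Col5a2 were highest in cluster 5. Cluster 24 also held the highest Col23a1, a transmembrane collagen, at 259 CPM, and the highest Col7a1, the anchoring-fibril collagen, at 296 CPM; cluster 29 had 2.61 and 3.48 CPM of these genes. Lox was highest in cluster 19 at 380 CPM and Loxl1 in cluster 29 at 485 CPM. Pcolce2 ranged from 942 CPM in cluster 4 to 1 UMI in cluster 28, and Col11a1 was highest in cluster 28 at 128 CPM. No 1 cluster was therefore the highest for all roles.

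**Figure D3:**
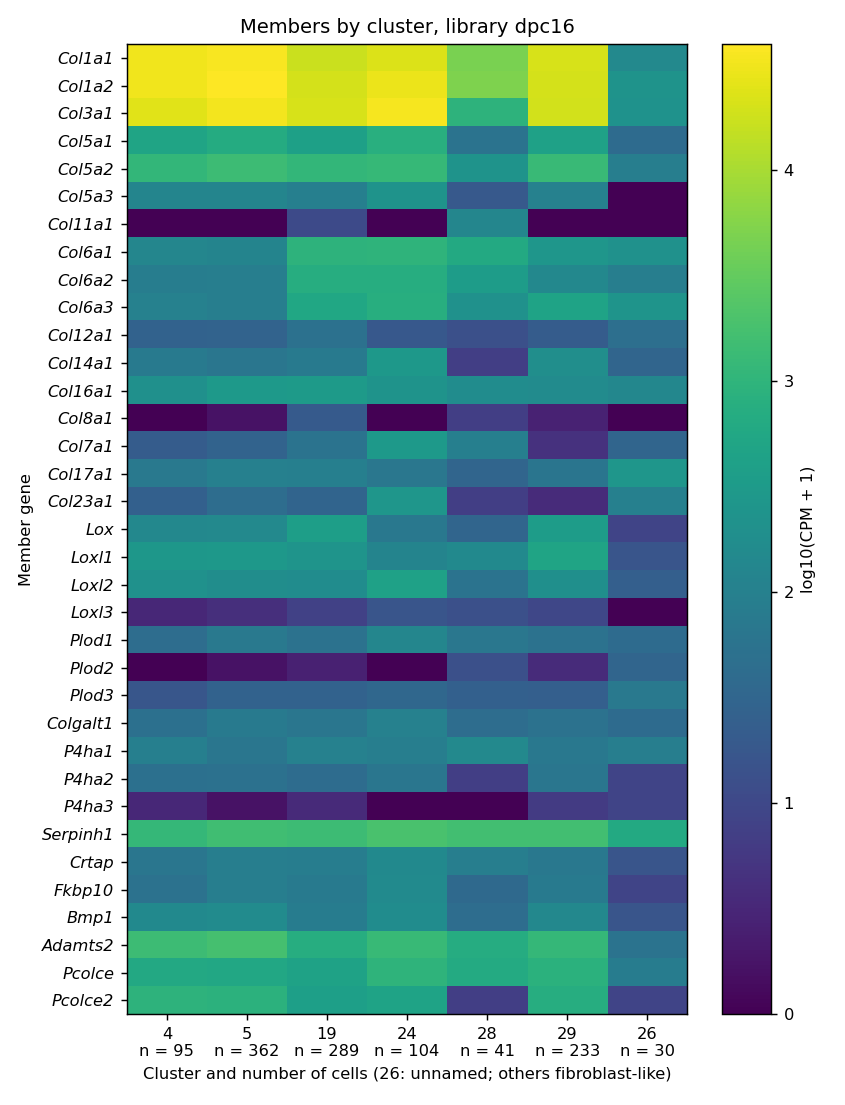
Level of each member, as log10(CPM + 1), in 6 fibroblast-like clusters and the unnamed cluster 26 of dpc16, with the number of cells under each cluster number. Cluster 5 is brightest for Col1a1 and Col1a2, clusters 19 and 24 for Col6a1 to Col6a3, and cluster 24 for Col7a1 and Col23a1.

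The libraries held these clusters in different shares, and in NP and dpp42 the 4 shared clusters had between 8 and 53 cells. Col1a1 was higher in dpc16 than in NP in 4 of 4 shared clusters, by 1.71 to 4.22 times, and dpp42 was below dpc16 in 4 of 4, at 0.210 to 0.428. Col1a2, Col3a1, Col5a2, Adamts2 and Pcolce had the same directions in 4 of 4 clusters, though for Col5a2 and Pcolce some intervals included 1. The smallest of these ratios of dpc16 to NP was 1.08 for Col3a1, in cluster 24 (1.03 to 1.13), and the largest was 8.62 for Adamts2, in cluster 5 (3.69 to 26.6, on 5 UMIs in NP). For Lox, dpc16 was above NP in 3 of 4 clusters, and the interval excluded 1 only in cluster 19 (4.39, 1.49 to 21.3). Against NP, dpp42 had less Col1a1 in 3 of 4 clusters, with an interval that included 1 in cluster 5 (0.884, 0.744 to 1.05), and in cluster 19 it had 1.80 times as much (4011 and 7224 CPM, on 139 and 435 UMIs). For Col6a1 the ratio of dpp42 to NP was above 1 in 2 clusters and below 1 in 2. Serpinh1 was likewise split in dpc16 against NP, from 0.502 in cluster 4 (0.436 to 0.578) to 1.81 in cluster 19 (1.24 to 2.76).

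**Figure D4:**
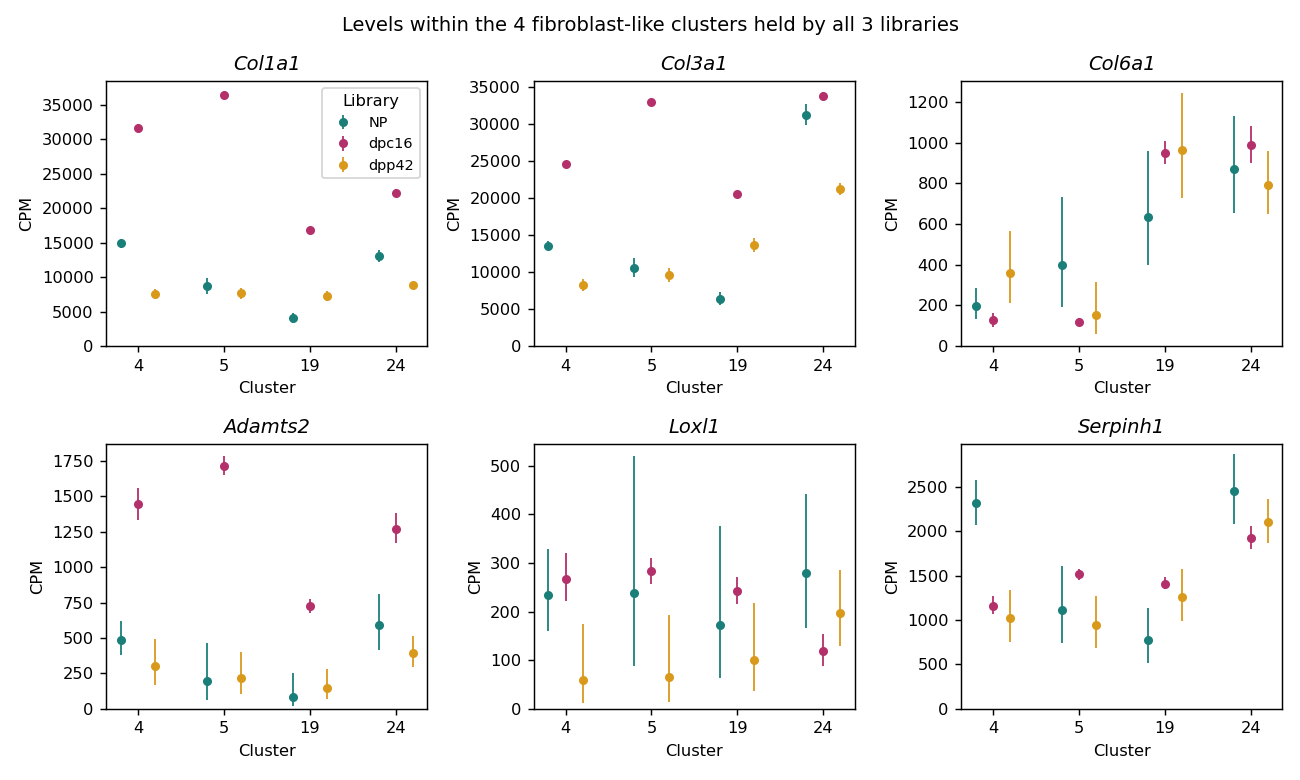
CPM of 6 members within the 4 fibroblast-like clusters held by all 3 libraries, with exact Poisson 95% intervals; the cells behind a point number from 8 (NP, cluster 5) to 362 (dpc16, cluster 5). Col1a1, Col3a1 and Adamts2 are highest in dpc16 in each cluster, whereas Col6a1 follows the cluster, with clusters 19 and 24 above 4 and 5 in every library.

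Across single cells, Spearman correlations of CPM are given as descriptions; the cells of a library share its preparation, and depth affects all genes of a cell. Col1a1 and Col1a2 varied together in each library (0.92 over 101 NP cells, 0.92 over 1124 dpc16 cells and 0.82 over 112 dpp42 cells), and Col1a1 with Col3a1 at 0.74, 0.78 and 0.75. Col1a1 and Col6a1 stood at -0.13, -0.34 and 0.17, and within the 6 dpc16 clusters between -0.28 and 0.17. Col6a1 had no UMI in 51.5% of NP, 45.2% of dpc16 and 38.4% of dpp42 fibroblast-like cells, which limits any correlation with it. With Col6a2 it stood at 0.38, 0.65 and 0.44. Col6a1 was thus less correlated with Col1a1 than with Col6a2 in each library.

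Over all cell classes with at least 50 cells and 20000 UMIs, summed over the 3 libraries, 29 of the 35 members had their highest level in fibroblast-like cells, 14 of the 17 chains among them. In that sum dpc16 gives most of the fibroblast-like cells. Ranked in each library by itself, 26 members in NP, 29 in dpc16 and 28 in dpp42 were highest there, and 25 were so in every library. These are bare ranks, and the share of all genes that peak there is not given here. In NP, Loxl3 ranked highest there on 1 UMI and Col11a1 on 4. Against the next class in NP, intervals included 1 for Crtap (0.767 to 3.87), Bmp1 (0.839 to 8.96) and Fkbp10 (0.678 to 179). Smaller classes and unnamed cells were left out of all these ranks. Col12a1, for example, was at 177 CPM (76.3 to 348, 8 UMIs) in 13 melanocyte-like cells of dpc16, against 30.7 CPM in fibroblast-like cells. Col7a1 was at 35.7 CPM in fibroblast-like and 39.2 in keratinocyte-like cells of NP, within counting error, and was highest in fibroblast-like cells of dpc16 and dpp42. Col17a1, the hemidesmosomal transmembrane collagen, was the exception in keratinocyte-like cells, at 491 CPM. It was at 513 CPM in NP (492 to 534), 473 in dpc16 (458 to 488) and 505 in dpp42 (481 to 529). Single keratinocyte-like clusters differed more and in both directions, cluster 21 from 366 CPM in NP (297 to 446) to 1128 in dpc16 (1032 to 1230) and cluster 7 from 1233 (1139 to 1332) to 833 (757 to 915). Among keratinocyte-like clusters it ran from 1423 CPM in cluster 0 (1337 to 1513), led by Cxcl14, Postn and Ptn, to 129 in cluster 9 (107 to 156), led by Cst6, Defb6 and Krt79.

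Within fibroblast-like cells Col17a1 stood at 150, 81.4 and 167 CPM in NP, dpc16 and dpp42. The 10 keratinocyte markers had the same order in those cells (2883, 2147 and 3730 CPM); their part in the Col17a1 difference was not tested.

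In lymphatic endothelial-like cells 3 members had their highest level among the ranked classes, namely Col23a1 at 76.7 CPM, Plod1 at 75.6 and Plod3 at 39.9. For Plod1 and Plod3 the next class did not differ beyond counting error (ratios of 1.18, 0.906 to 1.53, and 1.18, 0.727 to 1.91), while Col23a1 was 1.61 times its fibroblast-like level (1.22 to 2.09). Col23a1 had 5 UMIs in NP, 56 in dpc16 and 12 in dpp42 in that class, which is 74.9, 76.0 and 81.0 CPM. Taken by library, the interval of its ratio to fibroblast-like cells included 1 in NP (0.613 to 7.74) and dpp42 (0.507 to 2.41). It excluded 1 in dpc16 (1.18 to 2.16). Col8a1, a short-chain network collagen of vessel walls, was highest in blood endothelial-like cells. Of its 46 UMIs there, 39 lay in the 27 cells of cluster 18, led by Mgp, Fabp4 and Cldn5, at 273 CPM (194 to 373), against 7 UMIs in the 231 cells of cluster 17. Plod2 was highest in the same class on 13 UMIs.

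**Figure D5:**
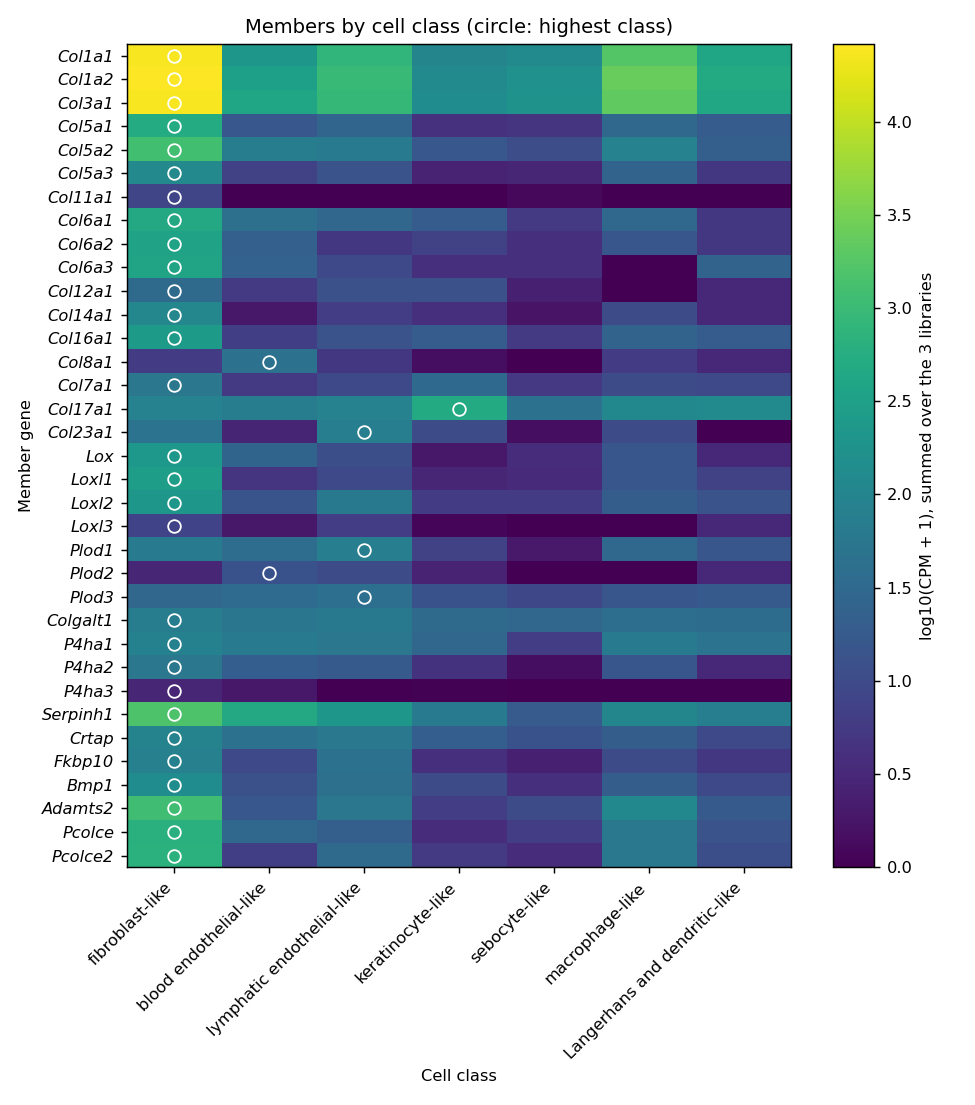
Level of each member as log10(CPM + 1), summed over the 3 libraries, in each cell class of at least 50 cells; a circle marks the highest class. Circles lie in the fibroblast-like column for 29 of 35 members, 25 of them in every library taken by itself, some on few UMIs. Col17a1 is highest in keratinocyte-like cells at 491 CPM.

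RNA set free by damaged cells can add counts to any droplet, so levels outside fibroblast-like cells were set beside 5 fibroblast transcripts, Dcn, Lum, Dpt, Pdgfra and Clec3b. In keratinocyte-like cells these had a median of 0.287% of their fibroblast-like level in NP, 0.912% in dpc16 and 0.390% in dpp42. Col1a1 was at 0.156%, 0.712% and 0.170%, below the lowest of the 5 in each library (0.224%, 0.855% and 0.319%). In keratinocyte-like cells Col1a1 was at 18.8 CPM in NP and 180 in dpc16, a ratio of 9.59 (7.67 to 12.1), while the ratios of the 5 references ran from 1.88 for Dpt (1.06 to 3.52) to 4.93 for Pdgfra (1.52 to 25.4), with Dcn at 3.30 (2.81 to 3.90). The part of free RNA in that difference was not tested. By contrast Serpinh1 was at 2.64%, 4.84% and 4.49%, P4ha1 at 17.8%, 30.7% and 31.5%, and Colgalt1 at 38.0%, 47.6% and 26.4% of the fibroblast-like level. In dpc16, 18 of 33 members with at least 20 UMIs in fibroblast-like cells had an interval above all 5 references. Of these, 8 were chains, such as Col6a1, Col7a1 and Col17a1. The limit was not set on keratinocyte-like UMIs, where Col8a1 had 6, P4ha2 18 and Fkbp10 19. In macrophage-like cells, found only in dpc16 (62 cells), Col1a1 reached 1739 CPM, the second highest class, and there the references stood at 4.43% to 9.66% and 5 of 33 members lay above them. Of these 5, Plod3 had 3 UMIs and Plod1 had 6 in that class.

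Summed over all kept cells, as bulk tissue would be read, the 17 collagens took 0.296% of UMIs in NP, 2.16% in dpc16 and 0.270% in dpp42. That contrast is far wider than within fibroblast-like cells, and the fibroblast-like share of cells moved with it (7.84%, 30.8% and 10.4%). In such a sum, more fibroblasts and more collagen RNA per fibroblast cannot be told apart.

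Beyond the 35 members, 86 further genes of the pathway were listed, of which 85 were in the tables. In dpc16 against NP, 49 were measured, 11 higher and 11 lower, beside 20.7% and 33.0% of all measured genes. Among 8 genes for collagen breakdown 5 were measured and 4 were higher, led by Ctsk, the collagen-cleaving cathepsin K, at 350 CPM in NP and 1412 in dpc16 (4.03, 3.31 to 4.98). Among fibril-binding genes, Sparc, a collagen-binding matricellular protein, was at 7280 CPM in NP, 24766 in dpc16 and 5848 in dpp42, which is Col1a1's order of libraries. Bgn, a small proteoglycan, was at 1204 CPM in NP and 2633 in dpc16. Fn1, on which fibrils assemble, was lower in dpc16, 622 against 1268 CPM (0.490, 0.439 to 0.549), as was the integrin subunit Itgb1 at 181 against 371 CPM.

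In dpp42 against NP, 37 of these genes were measured, 5 higher and 8 lower, beside 22.1% and 14.2% of all measured genes. Sar1a, a GTPase of coated-vesicle export, was at 343 CPM in NP and 188 in dpp42 (0.547, 0.385 to 0.770). Col15a1, a collagen near basement membranes, was at 257 CPM in NP and 529 in dpp42 (2.06, 1.54 to 2.76). In dpp42 against dpc16, 51 were measured, 13 higher and 8 lower, beside 41.3% and 13.3% of all measured genes. Tnxb, a fibril-spacing tenascin, was higher at 1146 against 510 CPM, and Ctsk lower at 604 against 1412 CPM.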

How the data were processed

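Raw UMI counts per gene and barcode were deposited by the authors, 1 matrix per library, from Chromium 3′ version 2 libraries, per the labels' protocols. The submitters' processing notes name Cell Ranger 2.2.0 and mm10 (GRCm38); for annotation and cell calling, the sources used here give nothing. No counting of strand or of shared reads between paralogues is stated.

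Barcodes with at least 200 genes and at most 10% mitochondrial UMIs were kept (6022 of 6648; 6020 cells are stated). Scrublet marked 4 cells (0.0664%) and its calls were not used, so doublets remain. Clusters (32) were made with scanpy 1.11.5 from 2000 variable genes other than the members, 30 principal components, 15 neighbours and Leiden resolution 1. A cluster was named when at least 3 markers were detected; 3 clusters stayed unnamed, and the naming score was set after seeing the data. Alternatives changed the mitochondrial limit, clustering, classing of cells, weighting, scaling and fold limit.

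UMIs were summed per library and class. Intervals are exact Poisson, binomial or conditional binomial at 95%; log2 ratios add 0.5 UMI. The interval and call functions were tested on simulated data. Members and lists were chosen with earlier results of these data known. Values are given for each member of at least 100 CPM in 1 library of fibroblast-like cells and for members highest in another class on at least 20 UMIs. For pathway genes, only some of those past 1.5-fold are given. Larger ratios were left out, such as Col18a1 in dpp42 against dpc16 (3.25, 2.37 to 4.39). Positions are from GENCODE M21 (28416 of 28693 identifiers matched).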

Additional observations from a re-analysis of the deposited data

Results flagged for a closer look

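For 3 results fibroblast-like and keratinocyte-like cells were past 1.5-fold in opposite directions, and none of these differences was tested, because each condition is 1 library. Col7a1, made by both cell types, had a ratio of dpc16 to NP of 1.55 in fibroblast-like cells (0.832 to 3.28, on 275 and 10 UMIs) and 0.660 in keratinocyte-like cells (0.536 to 0.813). Col23a1 had a ratio of dpp42 to NP of 2.23 in fibroblast-like cells (0.978 to 5.52, on 21 and 9 UMIs) and 0.259 in keratinocyte-like cells (0.141 to 0.446). Bmp1 had a ratio of dpp42 to dpc16 of 1.57 in fibroblast-like cells (1.19 to 2.05) and 0.576 in keratinocyte-like cells (0.344 to 0.927). In that comparison all measured genes of fibroblast-like cells had a median log2 ratio of 0.48, beside 0.67 for Bmp1. For Col7a1 and Col23a1 the fibroblast-like interval included 1. Of the 4 shared fibroblast-like clusters, 3 had a Col7a1 ratio of dpc16 to NP below 1 (0.240 to 0.970). The rest gave no finite ratio. In the same clusters the Col23a1 ratio of dpp42 to NP was above 1 in 3 and below 1 in 1. The Bmp1 ratio of dpp42 to dpc16 was above 1 in 4 of 4. These 3 genes were picked out by their values. Other members lay on opposite sides of 1 with at least 1 of the cell types under that limit, such as Serpinh1 in dpc16 against NP with 0.760 in fibroblast-like (0.698 to 0.830) and 73.6 against 52.7 CPM in keratinocyte-like cells, and Col6a1 in dpp42 against dpc16 with 1.45 in fibroblast-like (1.25 to 1.68) and 14.1 against 21.6 CPM in keratinocyte-like cells.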

How the results depend on the processing

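The 11 alternatives were applied to 69 member ratios, and no called ratio changed sign. The 2-fold limit and the removal of the minimum level leave a ratio as it is, so they could not change its sign. Leaving the members out of the CPM total scales all ratios of a comparison by the same factor, as does division by a median ratio. For measured genes the median log2 ratios were -0.30, 0.08 and 0.48, moved to -0.22, 0.07 and 0.40 without the members. For genes of at least 100 CPM they were -0.11, -0.02 and 0.09. All these factors were under 1.5-fold, so they could not change the sign of a called ratio. Only alternatives that changed the cells, clusters or weighting could. Calls did change, as the counts below show. Dividing by the median ratio of genes of at least 100 CPM in both libraries, ranking classes in each library and leaving out cluster 28 were chosen after seeing the data. A 2-fold limit left 4 higher and 3 lower members in dpc16 against NP (11.5% and 17.5% of all measured genes), 4 and 1 in dpp42 against NP (8.61% and 4.90%), and 5 and 5 in dpp42 against dpc16 (23.2% and 6.74%). For dpp42 against NP, 3 members were higher and 6 lower both with at most 5% mitochondrial UMIs and with each cell classed by its own markers, 2 were higher with the shared clusters weighted equally, and 6 were lower after division by the median ratio of measured genes. For dpp42 against dpc16, 6 were higher with equal weighting and 1 after that division. The collagen sum in dpc16 over NP was 1.67, and 1.54 with at most 5% mitochondrial UMIs, 1.56 at resolution 2, 1.58 with cells classed by their own markers and 2.06 with equal weighting. In dpp42 over NP it was 0.808, and 0.757 (5% mitochondrial UMIs), 0.732 (own markers), 0.831 (equal weighting) and 0.837 (mean over cells). In dpp42 over dpc16 it was 0.483, and 0.493 (5% mitochondrial UMIs), 0.521 (resolution 2), 0.463 (own markers), 0.403 (equal weighting) and 0.493 (mean over cells). The causes were not tested. With each cell classed by its own markers, 20 rather than 29 members were highest in fibroblast-like cells, and small classes took the others. No paired analysis was possible because each group has 1 library, and for the same reason none could be left out. Depth limits the calls: of those in dpc16 against NP, dpp42 against NP and dpp42 against dpc16, 2, 3 and 4 had an interval that includes 1.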

Other observations

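The reporter transcript EGFP was counted in 11.9% of fibroblast-like cells in NP (12 of 101), 0.356% in dpc16 (4 of 1124) and 12.5% in dpp42 (14 of 112). In dpp42, cells with an EGFP UMI held Col3a1 at 25020 CPM (23417 to 26704) and those without at 14277 CPM (13819 to 14747), while Col1a1 was at 8809 and 7975 CPM. In NP the corresponding Col3a1 levels were 17008 and 15754 CPM. The direction was opposite in dpc16, on 4 cells with an EGFP UMI. There Col3a1 was at 20901 CPM with (18917 to 23036) and 24986 without, and Col1a1 at 22085 and 25334 CPM. These intervals cover counting error and not the spread between so few cells. The reporter is switched on through a Cre named for Col1a2, and Col1a2 itself was at 14029 CPM with and 11511 CPM without an EGFP UMI in dpp42.

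Cluster 26, led by Crabp1, Igfbp3 and Notum and left unnamed, gave 0.188% of its dpc16 UMIs to the 17 collagens (0.165 to 0.213), against 1.29% in the lowest fibroblast-like cluster. Col23a1 was at 126 CPM there (81.5 to 186), on 25 UMIs over the 3 libraries. Plod3 was at 55.4 CPM (27.7 to 99.2) on 11 UMIs and Plod2 at 35.3 CPM (14.2 to 72.7) on 7. Each of these levels was above that of the gene's highest ranked class.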
